A study of Sus scrofa with 43 samples.

Results

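ANPEP, DPP4, ENPEP and SLC15A1 encode 3 peptidases and 1 peptide transporter of the enterocyte brush border. They were found on the array by the pig RefSeq transcript that each spot names, and 4 of the 35884 accessions on the array, carried by 9 of its 43803 gene spots, belonged to them. ANPEP (NM_214277) and ENPEP (NM_214017) had 3 probes each, SLC15A1 (NM_214347) had 2 and DPP4 (NM_214257) had 1. All 9 probes were well above background on each of the 43 arrays and none of their spots was flagged, so the 4 genes passed the filter on dim spots and were among the 12771 accessions tested.

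The arrays measured RNA from jejunal scrapings of piglets, and the study asked whether amoxicillin given to the sow changes how the intestine of her offspring develops. Sows of the amoxicillin group were fed amoxicillin (Paracillin SP) at a daily dose of 15 mg/kg during the last week before the expected farrowing, up to farrowing itself, and control sows were fed without it. The piglets are not described as treated themselves. A single male piglet per sow was sampled at each age, so the ages are different animals. The control group had 6 piglets on day 1, 6 on day 7, 3 at weaning, 5 at 4 d postweaning and 3 at 4 wk postweaning, and the amoxicillin group had 4 piglets at each of the 5 ages. The labels name neither the sow nor the study batch of a piglet.

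Dietary protein reaches the jejunum as a mixture of peptides, and the last steps of its digestion take place on the microvilli of mature enterocytes. Membrane peptidases there split peptides into amino acids and di- and tripeptides, and the small peptides enter the cell with protons through SLC15A1, better known as PepT1. Aminopeptidase N (ANPEP) removes neutral amino acids from the N-terminus, glutamyl aminopeptidase (ENPEP, aminopeptidase A) removes acidic ones, and dipeptidyl peptidase 4 (DPP4) removes dipeptides that end in proline or alanine. DPP4 is also carried by activated T cells as CD26, and ANPEP by myeloid cells as CD13.

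All values below are normalized log2 intensities unless a fold is named, and the levels of different genes are not compared with each other because they come from different probes. Spots of these genes were saturated from a scanner intensity of 65528 upwards, which quantile normalization placed between 15.58 and 16.00 on the log2 scale, and a saturated spot gives only a lower bound of the level. Each array showed between 15937 and 29827 gene spots well above background, and 4 arrays, all from 4 wk postweaning, had fewer than 20000. The number also differed by treatment. Control arrays had 25560 to 29827 such spots, apart from piglet 34 of 4 wk postweaning with 15937, and amoxicillin arrays had 16150 to 26290. The part of this difference in the treatment comparisons was not tested. The name of each scan holds a slot number from 1 to 6, which is called the slide below. The labels do not say whether arrays of the same number shared a glass slide. Control piglets were on slides 1 to 3 and amoxicillin piglets on slides 4 to 6, so the treatment of the sow cannot be told apart from the slide. The ages of each treatment run over the slides in order, with consecutive ages sharing a slide, so values with the slide as a random block (correlation 0.127) are given where they change a call.

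A set of 6 arrays stood apart in FABP6, a gene that marks the ileum, and they are called arrays with high ileal genes below. FABP6, the ileal bile acid binding protein, was between 15.77 and 15.99 on these arrays, and between 6.55 and 14.65 with a median of 9.21 on the other 37. The 6 were control piglet 7 and amoxicillin piglet 8 at weaning, control piglet 10 and amoxicillin piglet 10 at 4 d postweaning, and control piglet 13 and amoxicillin piglet 40 at 4 wk postweaning. SLC10A2, another ileal gene, was 13.58 and 13.45 in control piglets 10 and 13 and 11.96 in amoxicillin piglet 10. In control piglet 7 and amoxicillin piglets 8 and 40 it was 8.55, 8.81 and 10.31. It was 10.71 in amoxicillin piglet 2 of day 1, outside the set, so the name rests on FABP6. The study also collected ileal scrapings, and whether these 6 arrays hold jejunal RNA was not tested. Results that rest on them are given with and without them.

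DPP4 was the member that changed most clearly with age, and it rose in both groups. In control piglets it was at least 2.30-fold higher on day 7 than on day 1 and then lay at or near the ceiling of the scanner at the later ages. In amoxicillin piglets the mean climbed from 14.04 ± 0.56 (SD, n = 4) on day 1 to 15.67 ± 0.64 (SD, n = 4) at weaning and 15.74 ± 0.26 (SD, n = 4) at 4 wk postweaning.

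On day 1 the 6 control piglets had a lowest DPP4 value of 14.10, a median of 14.36 and a highest value of 14.91. On day 7 the lowest was 15.32, the median 15.54 and the highest 16.00. All 6 control piglets of day 7 were therefore above all 6 of day 1. The 3 control piglets of weaning were at 15.72, 16.00 and 16.00, and the 5 of 4 d postweaning were at 14.95, 15.94, 15.98, 15.99 and 16.00. Each of the 3 control piglets of 4 wk postweaning was saturated at 16.00. Apart from piglet 10 at 4 d postweaning, which was only just above the highest day 1 value, the later control piglets all lay above 15.7.

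In amoxicillin piglets DPP4 was 13.58, 13.86, 13.87 and 14.85 on day 1 and 14.53, 14.75, 14.79 and 15.56 on day 7. The groups overlapped through the single day 1 piglet at 14.85. The 4 piglets of weaning were at 14.71, 15.98, 16.00 and 16.00, those of 4 d postweaning at 15.17, 15.28, 15.44 and 15.44, and those of 4 wk postweaning at 15.38, 15.78, 15.80 and 16.00. The low value at weaning came from piglet 8, one of the 6 arrays with high ileal genes. Of the 10 groups, only those of day 1 in both treatments and those of day 7 and 4 d postweaning in amoxicillin piglets held no saturated DPP4 spot. It was saturated on 2 of 6 control arrays of day 7, 2 of 3 of weaning and 4 of 5 of 4 d postweaning, and in amoxicillin piglets on 3 of 4 of weaning and 2 of 4 of 4 wk postweaning, so each rise from day 1 to one of these groups is a lower bound.

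**Figure D1:**
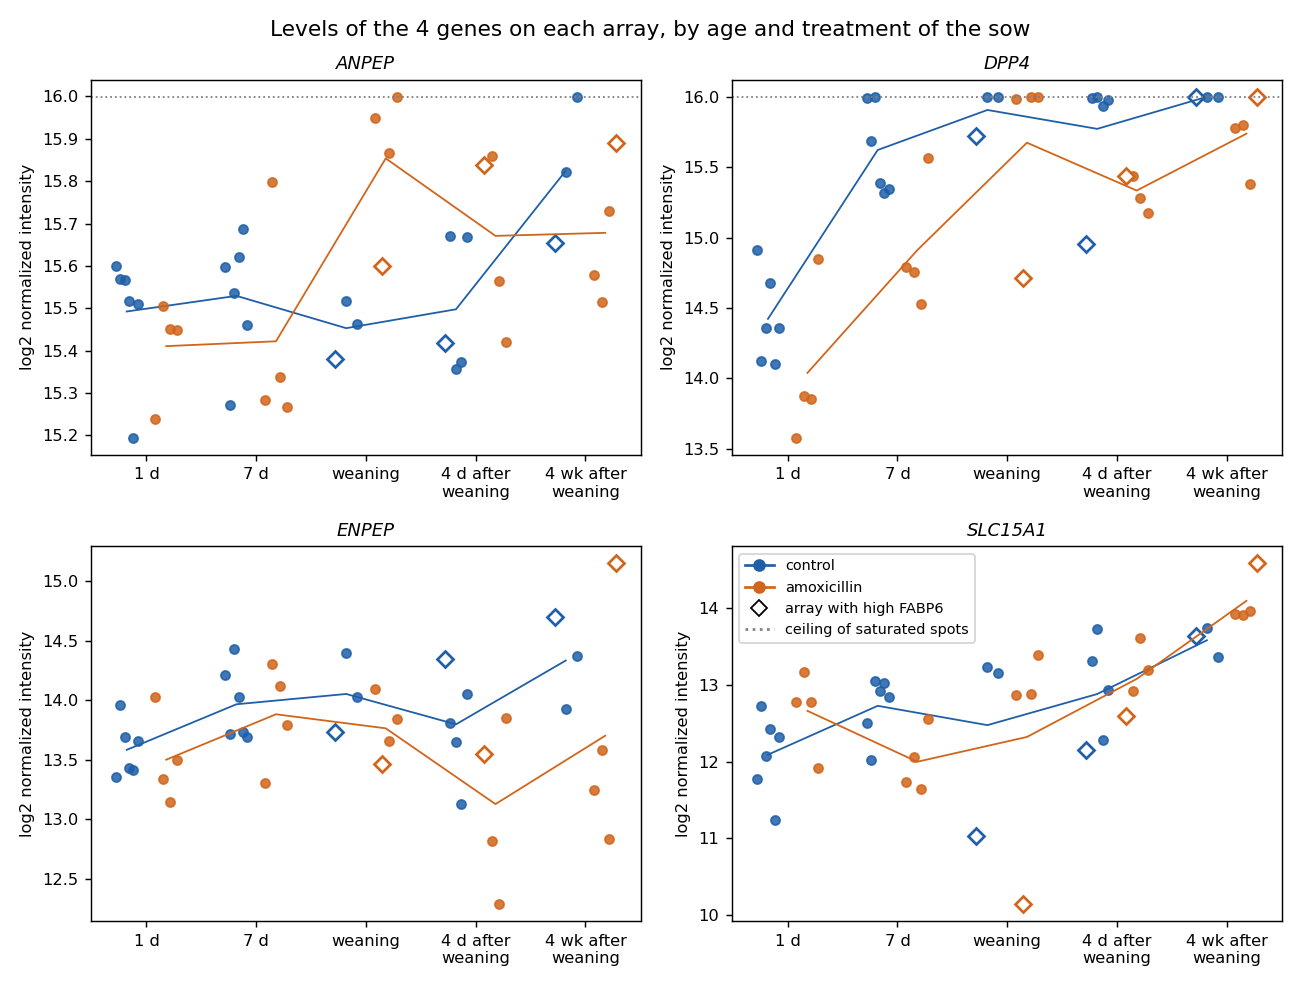
Normalized log2 intensity of ANPEP, DPP4, ENPEP and SLC15A1 (one panel each, probes of a gene averaged) on each of the 43 arrays, by age on the x axis and by treatment. Points are piglets, lines join group means, open diamonds are the 6 arrays with high ileal genes and the dotted line is the scanner ceiling at 16.00. DPP4 rises from day 1 towards the ceiling in both groups, SLC15A1 is highest at 4 wk postweaning, and ANPEP lies close to the ceiling at all ages.

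Over the 5 ages DPP4 changed with an adjusted p of 1.63e-05 in control and 3.12e-05 in amoxicillin piglets (limma moderated F-test, Benjamini-Hochberg over all genes tested). In control piglets the day 7 mean was 1.20 (SE 0.23) above day 1 with an adjusted p of 0.00226. Of all genes tested 1.43% passed at this step, and the difference is a lower bound. The difference from day 1 was at least 1.48 (SE 0.28, adjusted p = 0.00054) at weaning and at least 1.35 (SE 0.24, adjusted p = 5.25e-05) at 4 d postweaning, where 8.82% and 25.9% of all genes passed. At 4 wk postweaning DPP4 was at least 2.98-fold higher than on day 1 (adjusted p = 5.59e-05), a bound because all 3 arrays were saturated, beside 25.6% of all genes that passed. From day 7 on, the means in rising order were day 7, 4 d postweaning, weaning and 4 wk postweaning, and no pair among these 4 ages passed the test. Saturation of 11 of the 17 control arrays at these ages limits what could be seen there.

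In amoxicillin piglets DPP4 was at least 1.63 (SE 0.28) higher at weaning than on day 1 (adjusted p = 6.74e-05), 2.45-fold higher 4 d postweaning (adjusted p = 0.00132) and at least 3.25-fold higher 4 wk postweaning (adjusted p = 1.43e-05). Over all genes 22.7%, 14.2% and 31.4% passed in these comparisons. The step from day 1 to day 7 was 0.87 (SE 0.28) and did not pass the test (adjusted p = 0.187), which 0.736% of all genes did, but it passed without the 6 arrays with high ileal genes (adjusted p = 0.0437). The rise from day 7 to 4 wk postweaning, of at least 0.83, passed with an adjusted p of 0.022, as did 30.9% of all genes, and did not pass with slide as a random block (adjusted p = 0.0683). In order of the means, day 1 was followed by day 7 and 4 d postweaning, and then by weaning and 4 wk postweaning, whose own order is not settled because both held saturated spots. It turned without the 6 arrays with high ileal genes, where weaning was 1.95 and 4 wk postweaning 1.61 above day 1. Neighbouring ages did not pass the test. With slide as a random block the F-test of DPP4 still passed in both groups (adjusted p = 0.000732 and 0.00258). With slide as a fixed block, which leaves the arrays that share a slide to carry the ages, it was 0.0455 in control and 0.258 in amoxicillin piglets. In that fit the control steps from day 1 to day 7 and to weaning passed (adjusted p = 0.0175 and 0.0233), while 4 d postweaning was 0.86 and 4 wk postweaning 0.88 above day 1 without passing (adjusted p = 0.877 and 0.904). None of the comparisons with day 1 passed there in amoxicillin piglets.

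Within slide 1 the 2 control piglets of day 7 were on average 1.42 above the 6 of day 1 in DPP4. Within slide 4 the 3 amoxicillin piglets of day 7 were 0.65 above the 4 of day 1. Both within-slide steps thus ran in the direction of the pooled ones. The jejunal samples hold many cell types, and a higher level from more cells of a type cannot be told apart from more RNA per cell.

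T-cell genes rose over the same ages as DPP4, which is itself also a T-cell surface peptidase. All 6 T-cell marker accessions tested were called by age in both groups, where 30.5% of all genes were in control and 47.0% in amoxicillin piglets, and all 6 were higher at 4 wk postweaning than on day 1. Their median difference was 2.90 in control and 2.77 in amoxicillin piglets, against -0.08 and -0.11 over all genes. Of all genes, 13.4% in control and 12.5% in amoxicillin piglets passed as higher in this comparison. CD8A, the coreceptor of cytotoxic T cells, rose by 3.19 and CD3E, a subunit of the T-cell receptor complex, by 3.43 in control piglets (adjusted p = 5.79e-09 and 1.33e-06). The summed level of 7 T-cell markers was 9.27 to 10.06 on day 1 and 12.62 to 13.07 at 4 wk postweaning in control piglets, and 9.15 to 9.99 and 12.76 to 13.81 in amoxicillin piglets.

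Within groups, the relation of DPP4 with the T-cell markers was weak. DPP4 was saturated on 16 of the 43 arrays, which limits its deviations there, and the 3 control arrays of 4 wk postweaning had the same value. Over the 43 arrays the deviations of DPP4 from its group means correlated with those of the summed T-cell level with a Pearson r of 0.15 (permutation p = 0.41, adjusted p = 0.72) and a Spearman rho of 0.20 (permutation p = 0.26, adjusted p = 0.63). Without the 2 arrays farthest from the median the r was 0.19, and within slides 1 to 5 it was 0.46, -0.20, -0.04, 0.57 and 0.34. Genes whose levels followed DPP4 most closely over all 43 arrays, ages included, were CCL5 (r = 0.83), GAL3ST1 (0.77), CD3E (0.76), CD96 (0.73) and SLA-3 (0.73), chosen from 1854 named genes. CCL5 is a chemokine made by T cells, CD96 a receptor of T and NK cells, SLA-3 a class I histocompatibility gene and GAL3ST1 an enzyme of sulfatide synthesis. Once the group means were taken out, these 5 correlations were 0.45, 0.60, 0.20, 0.26 and 0.24. The part of T cells in the DPP4 course was not tested.

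ANPEP was at the top of the intensity range throughout. A_72_P177411 was saturated on 42 of 43 arrays and A_72_P566249 on 35, and the former was saturated on all arrays of every group except amoxicillin piglets of day 1. The third probe, A_72_P632095, was saturated on 3 arrays. The mean of the 3 probes therefore moved little, between 15.41 ± 0.12 (SD, n = 4) in amoxicillin piglets of day 1 and 15.85 ± 0.18 (SD, n = 4) in those of weaning, and a mean that holds saturated spots understates a rise.

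In control piglets the ANPEP level had a median of 15.54 on day 1 (15.19 to 15.60) and 15.57 on day 7 (15.27 to 15.69). The piglets of weaning were at 15.38, 15.46 and 15.52, those of 4 d postweaning at 15.36, 15.37, 15.42, 15.67 and 15.67, and those of 4 wk postweaning at 15.65, 15.82 and 16.00. The 4 wk postweaning piglets overlapped only narrowly with the younger ones. In amoxicillin piglets the values were 15.24, 15.45, 15.45 and 15.51 on day 1, 15.27, 15.28, 15.34 and 15.80 on day 7 and 15.60, 15.87, 15.95 and 16.00 at weaning. The piglets of 4 d postweaning were at 15.42, 15.56, 15.84 and 15.86 and those of 4 wk postweaning at 15.52, 15.58, 15.73 and 15.89. All 4 weaning piglets of this group were above all 4 of day 1.

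The F-test over the ages did not pass for ANPEP in control (adjusted p = 0.365) or amoxicillin piglets (adjusted p = 0.0639). Of its 20 age comparisons 1 passed, weaning against day 1 in amoxicillin piglets, with a difference of 0.44 (SE 0.16, adjusted p = 0.0357), and this one did not pass with slide as a random block (adjusted p = 0.118). The mean order in control piglets was weaning, day 1, 4 d postweaning, day 7 and 4 wk postweaning, with no pair past the test. In amoxicillin piglets it was day 1, day 7, 4 d postweaning, 4 wk postweaning and weaning, where only the first and the last differed.

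The ANPEP probe below the ceiling showed a wider course. A_72_P632095 averaged 14.58, 14.61, 14.36, 14.56 and 15.49 over the 5 ages in control piglets and 14.28, 14.51, 15.57, 15.15 and 15.15 in amoxicillin piglets. It was 0.91 (SE 0.33) higher at 4 wk postweaning than on day 1 in control piglets and 0.87 (SE 0.33) higher in amoxicillin piglets, with adjusted p of 0.0409 and 0.0418. In amoxicillin piglets it had already risen at weaning, by 1.29 over day 1 (adjusted p = 0.00448). This probe was singled out after seeing the data, for having the fewest saturated spots of its gene.

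**Figure D2:**
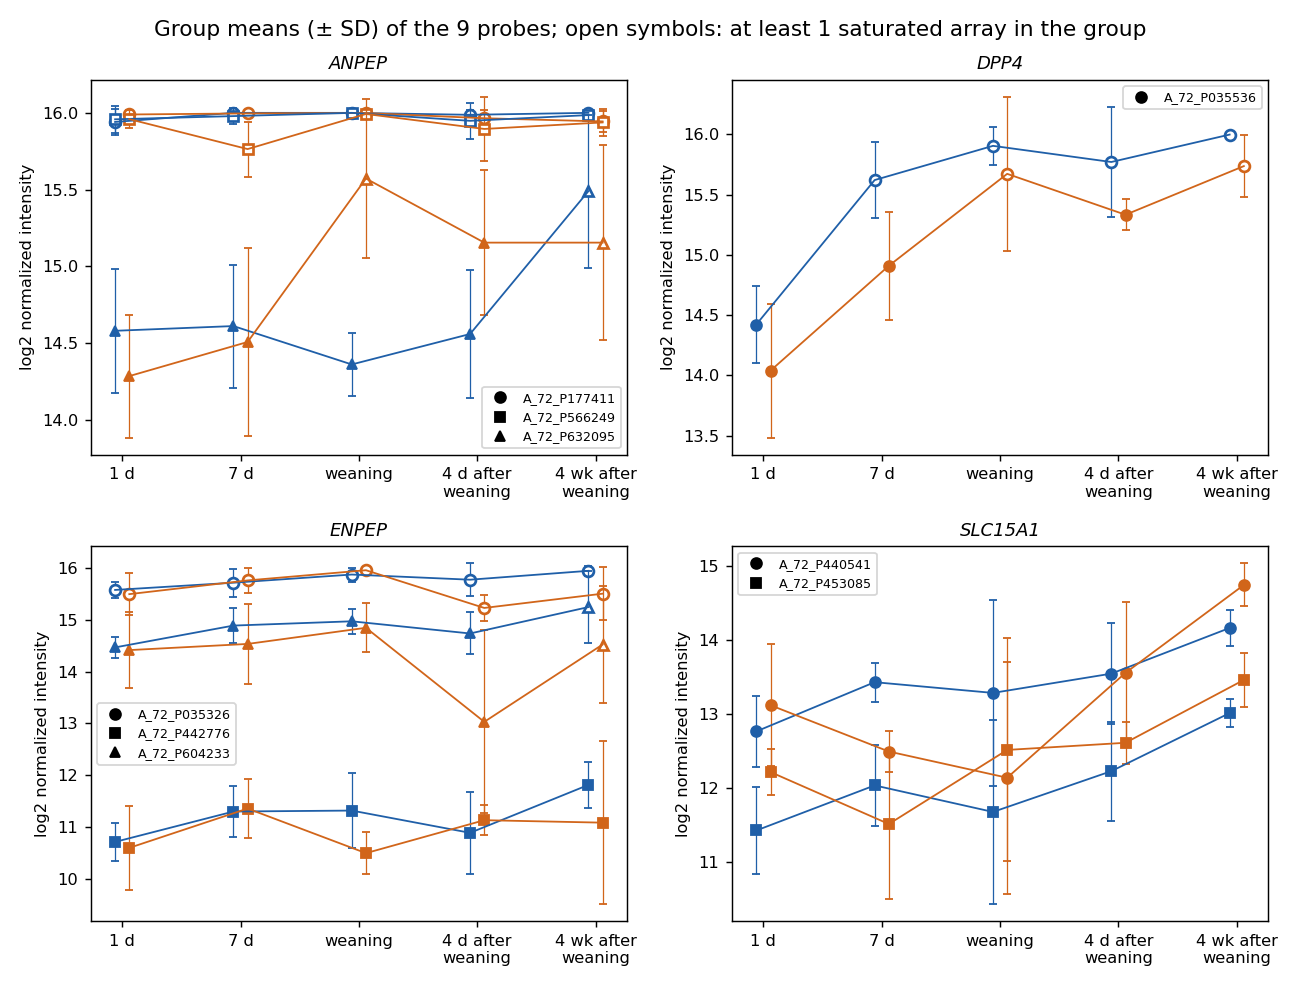
Group means ± SD of the normalized log2 intensity of each of the 9 probes of the 4 genes over the 5 ages, in control (blue) and amoxicillin piglets (orange). Open symbols mark groups in which at least 1 array was saturated. The ANPEP probes A_72_P177411 and A_72_P566249 lie on the ceiling at nearly all ages, and the 2 SLC15A1 probes and ENPEP A_72_P442776 lie below it on every array.

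The mean of the 3 ENPEP probes did not pass the test over the ages in either group. Its means were 13.58, 13.97, 14.05, 13.80 and 14.33 from day 1 to 4 wk postweaning in control piglets and 13.50, 13.88, 13.76, 13.13 and 13.70 in amoxicillin piglets. The F-test gave an adjusted p of 0.401 and 0.3, and none of the 20 age comparisons passed. The difference between 4 wk postweaning and day 1 was 0.75 in control piglets, with a 95% confidence interval of 0.05 to 1.44, and 0.20 in amoxicillin piglets, with an interval of -0.49 to 0.90. The latter was -0.28 without piglet 40. Of its probes A_72_P035326 was saturated on 16 arrays and A_72_P604233 on 2, so the mean has a ceiling too. Single probes differed from the mean in amoxicillin piglets. There the F-test passed for A_72_P035326 (adjusted p = 0.0402) and A_72_P604233 (adjusted p = 0.0337) and not for A_72_P442776 (adjusted p = 0.433), and between weaning and 4 d postweaning the first fell by 0.73 and the next fell by 1.82 (adjusted p = 0.0333 and 0.0331).

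In control piglets ENPEP had a median of 13.55 on day 1 (13.35 to 13.96) and 13.88 on day 7 (13.69 to 14.43). The piglets of weaning were at 13.73, 14.03 and 14.40, those of 4 d postweaning at 13.13, 13.65, 13.81, 14.05 and 14.35 and those of 4 wk postweaning at 13.93, 14.37 and 14.70. Every age overlapped with the next. In amoxicillin piglets it was 13.14, 13.34, 13.50 and 14.03 on day 1, 13.31, 13.79, 14.12 and 14.31 on day 7 and 13.47, 13.66, 13.84 and 14.09 at weaning. The piglets of 4 d postweaning were at 12.29, 12.82, 13.55 and 13.85, and those of 4 wk postweaning at 12.84, 13.24, 13.58 and 15.15. The highest of these values came from piglet 40, one of the 6 arrays with high ileal genes. Without those 6 arrays the F-test in amoxicillin piglets gave an adjusted p of 0.0447 for ENPEP and 0.0414 for ANPEP.

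SLC15A1, the peptide transporter, was highest at 4 wk postweaning in both groups, and no spot of its 2 probes was saturated. In amoxicillin piglets it was 4.29-fold higher at 4 wk postweaning than on day 7 and 2.71-fold higher than on day 1. In control piglets it was 2.82-fold higher at 4 wk postweaning than on day 1.

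In control piglets SLC15A1 had a median of 12.19 on day 1 (11.23 to 12.72) and 12.88 on day 7 (12.03 to 13.05). The piglets of weaning were at 11.03, 13.16 and 13.24, those of 4 d postweaning at 12.16, 12.28, 12.93, 13.31 and 13.73, and those of 4 wk postweaning at 13.36, 13.65 and 13.74. All 3 piglets of 4 wk postweaning were above all 12 of days 1 and 7, and above the 3 of weaning, but not above the highest of 4 d postweaning. The lowest value at weaning, from piglet 7, and the lowest at 4 d postweaning, from piglet 10, both came from arrays with high ileal genes.

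In amoxicillin piglets SLC15A1 was 11.91, 12.78, 12.78 and 13.17 on day 1, 11.64, 11.73, 12.06 and 12.56 on day 7 and 10.14, 12.87, 12.89 and 13.39 at weaning. The piglets of 4 d postweaning were at 12.59, 12.92, 13.20 and 13.61 and those of 4 wk postweaning at 13.92, 13.92, 13.97 and 14.59. All 4 piglets of 4 wk postweaning were above all 16 younger amoxicillin piglets. Piglet 8 at weaning, at 10.14, was the lowest of all 43 arrays, and the same array had a summed level of crypt proliferation genes of 15.10 against 11.42 to 12.31 on the other 3 weaning arrays of its group. Its summed level of enterocyte lipid-handling genes was 16.58 against 18.69 to 18.73. In control piglet 7 at weaning these sums were 14.61 and 18.11, against 10.08 and 11.93 and against 18.70 and 18.74 in the other 2 control piglets. The low transporter level thus stood on arrays with high crypt and low lipid-handling genes, and the part of these in the result was not tested.

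The F-test of SLC15A1 over the ages passed in amoxicillin piglets (adjusted p = 0.00415) and did not pass in control piglets (adjusted p = 0.115). Without the 6 arrays with high ileal genes it passed in both groups (adjusted p = 0.00034 and 0.00422), and leaving out amoxicillin piglet 8 of weaning alone was enough for it to pass in control piglets (adjusted p = 0.0234), through the spread that all groups share. Without the 4 arrays of 4 wk postweaning that had fewer than 20000 gene spots well above background it passed in neither (adjusted p = 0.142 in amoxicillin and 0.273 in control piglets). With slide as a random block the adjusted p was 0.0397 in amoxicillin and 0.493 in control piglets.

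At 4 wk postweaning SLC15A1 was 1.49 (SE 0.48, adjusted p = 0.0175) above day 1 in control piglets. In amoxicillin piglets it was 1.44 above day 1 (SE 0.48, adjusted p = 0.0197), 2.10 above day 7 (adjusted p = 0.00102) and 1.78 above weaning (adjusted p = 0.00554), a comparison that 26.5% of all genes passed. The differences from day 1 did not pass with slide as a random block (adjusted p = 0.138 and 0.101), while those from day 7 and weaning in amoxicillin piglets did (adjusted p = 0.00939 and 0.0329). With slide as a fixed block the control difference between 4 wk postweaning and day 1 was -0.10. The difference from weaning in amoxicillin piglets was 1.05 without piglet 8 and then did not pass (adjusted p = 0.055).

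The order of the SLC15A1 means differed between the groups at the young ages. It was day 1, weaning, day 7, 4 d postweaning and 4 wk postweaning in control piglets, and day 7, weaning, day 1, 4 d postweaning and 4 wk postweaning in amoxicillin piglets. No neighbouring ages in either order passed the test. Within slides, the step from 4 d to 4 wk postweaning was 0.52 on slide 3 in control and 0.90 on slide 6 in amoxicillin piglets, and the step from day 1 to day 7 was 0.18 on slide 1 in control and -0.85 on slide 4 in amoxicillin piglets.

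The 2 SLC15A1 probes had similar courses except at weaning. From day 1 to 4 wk postweaning A_72_P440541 rose by 1.40 in control and 1.63 in amoxicillin piglets (adjusted p = 0.0485 and 0.0168), and A_72_P453085 rose by 1.59 in control piglets (adjusted p = 0.0232) and was 1.25 higher in amoxicillin piglets without passing the test (adjusted p = 0.0667). From day 1 to weaning in amoxicillin piglets A_72_P440541 was 0.98 lower and A_72_P453085 0.30 higher, neither past the test.

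Over the 4 genes, 1 was called by age in control piglets, where 30.5% of all genes tested were called, and 2 in amoxicillin piglets, where 47.0% were. Of the 40 age comparisons in each group 5 passed in control and 8 in amoxicillin piglets, beside 11.0% and 16.4% of the comparisons over all genes. All 13 were higher at the later age, 8 of them in DPP4, 4 in SLC15A1 and 1 in ANPEP. At an unadjusted p under 0.05 there were 9 and 14. For the comparison of 4 wk postweaning with day 1, 25.6% of all genes passed in control and 31.4% in amoxicillin piglets, and 2 of the 4 members, DPP4 and SLC15A1, passed in each.

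**Figure D3:**
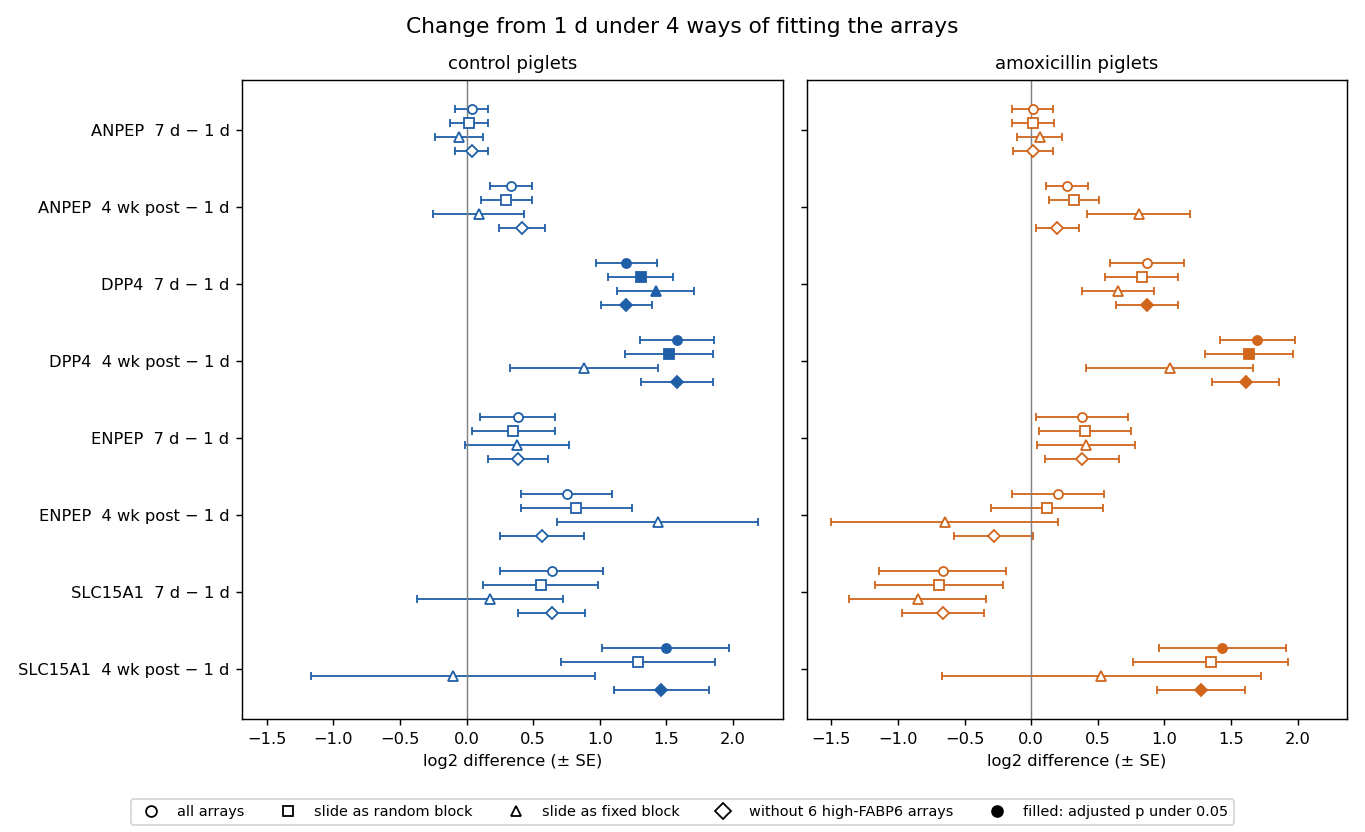
Log2 difference of day 7 and of 4 wk postweaning from day 1 for each gene in control and amoxicillin piglets, with bars of 1 SE, without a block, with slide as a random block, with slide as a fixed block and without the 6 arrays with high ileal genes. Filled symbols have an adjusted p under 0.05. DPP4 stays above 0 in all settings, and the SLC15A1 difference at 4 wk postweaning in control piglets falls to -0.10 with slide as a fixed block.

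The treatment of the sow was compared at each age, with a call at an adjusted p under 0.05 and a log2 difference beyond 1.5. None of the 20 comparisons of the 4 genes was called by limma, where 1.46% over all genes were, and none had an adjusted p under 0.05, where 3.14% did. An unadjusted p under 0.05 was found for 3 of the 20, while 6.95% of all genes on day 7 to 22.2% at weaning had one. DPP4 differed by -0.71 between amoxicillin and control piglets on day 7 (95% confidence interval -1.23 to -0.20, adjusted p = 0.562). ENPEP differed by -0.67 at 4 d postweaning (interval -1.33 to -0.01, adjusted p = 0.356). ANPEP differed by 0.40 at weaning (interval 0.06 to 0.74, adjusted p = 0.14).

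The DPP4 mean of amoxicillin piglets was below that of control piglets at all 5 ages, with differences of -0.38, -0.71, -0.23, -0.44 and -0.26, none of which was called. At weaning it was -0.01 without the 6 arrays with high ileal genes and 0.09 without amoxicillin piglet 8 alone, and at 4 d postweaning it was 0.14 with the processed signal scaled to the 75th percentile. The control means of day 7 and later hold saturated spots, and at 4 wk postweaning all of them were saturated, so these sizes are not settled. For ENPEP at 4 wk postweaning the difference of -0.63 became -1.11 without amoxicillin piglet 40 (adjusted p = 0.0343), still under the fold threshold, and -0.93 without the 6 arrays (adjusted p = 0.117). For SLC15A1 the differences were 0.57, -0.73, -0.15, 0.20 and 0.51, with both signs. The groups did not overlap for ANPEP at weaning, where this held for 12.7% of all genes, and for SLC15A1 at 4 wk postweaning, where it held for 13.8%. In both cases amoxicillin piglets were higher. The test that the treatment difference is the same at all ages did not pass for any of the 4 (adjusted p from 0.365 to 0.902), beside 6.18% of all genes.

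For the ANPEP probe with the fewest saturated spots, A_72_P632095, the treatment difference at weaning was 1.21 (SE 0.35, adjusted p = 0.0284), below the fold threshold. It averaged 14.36 ± 0.21 (SD, n = 3) in control and 15.57 ± 0.52 (SD, n = 4) in amoxicillin piglets there. Without the 4 arrays of few bright spots, ENPEP at 4 wk postweaning was 1.70 lower in the 1 amoxicillin piglet that was left than in the 2 control piglets, and this was called (adjusted p = 0.041). That single piglet is assumed there to vary like the other groups.

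**Figure D4:**
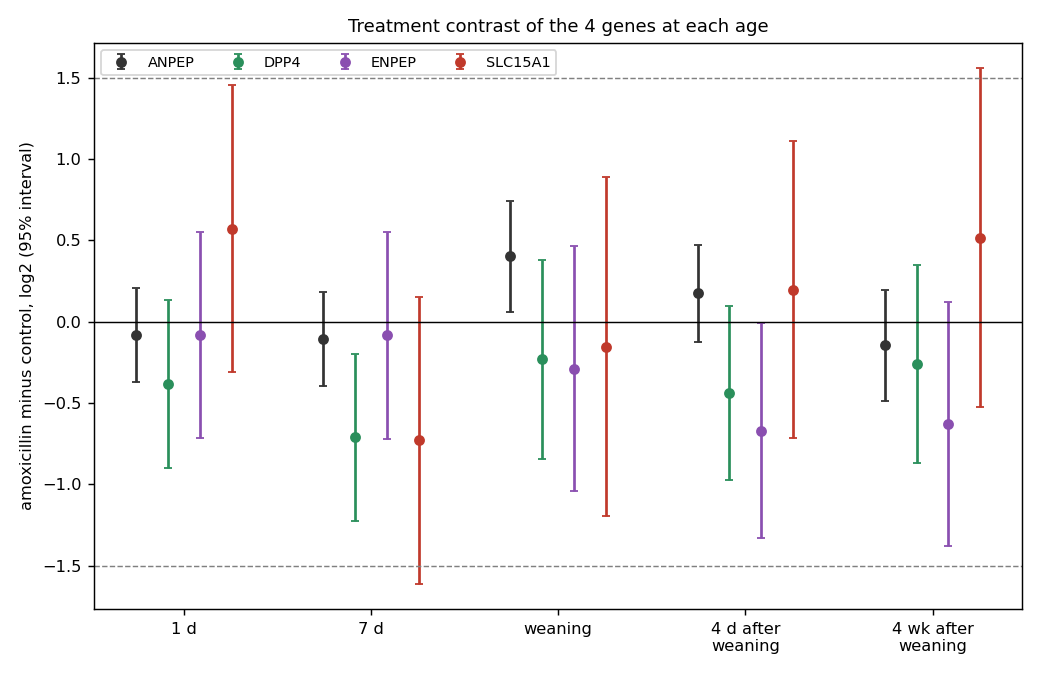
Log2 difference between amoxicillin and control piglets for each of the 4 genes at each of the 5 ages, with 95% confidence intervals from the limma fit. Dashed lines mark the fold threshold of 1.5 in either direction. None of the 20 differences is beyond the threshold, and the 5 DPP4 differences are all below 0; that of weaning is above 0 without amoxicillin piglet 8.

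All 4 are enterocyte genes, and it was asked whether arrays high in one were high in the others. Agreement was compared within groups, on the deviations of each array from its group mean, for 6 pairs of genes over 43 arrays. Pearson r lay between 0.06 for DPP4 with ENPEP and 0.41 for DPP4 with SLC15A1, and no pair had an adjusted p under 0.05. For DPP4 with SLC15A1 the permutation p was 0.062 (adjusted 0.17) and the Spearman rho 0.29 (permutation p = 0.088, adjusted p = 0.21). This r fell to 0.14 without the 2 arrays farthest from the median and to -0.11 without the 6 arrays with high ileal genes. Within slides 1 to 5 it was -0.07, 0.53, 0.37, -0.65 and 0.88.

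For ANPEP with SLC15A1 r was 0.37 (permutation p = 0.018, adjusted p = 0.11) and rho 0.25 (permutation p = 0.12, adjusted p = 0.21). It was 0.35 without the 2 farthest arrays and 0.74, 0.61, -0.05, 0.23 and 0.43 within slides 1 to 5. The 5 arrays of slide 6 were too few for a value. All 6 values of r were above 0 and none passed after adjustment. With slide as a fixed block 4 of the 6 pairs passed, and with each scaling to the 75th percentile 1 did.

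Probes of the same gene were compared in the same way. The 2 SLC15A1 probes correlated with r = 0.67 within groups (permutation p = 0.00083, adjusted p = 0.0029) and rho = 0.65 (permutation p = 0.00025, adjusted p = 0.00087), over 7 probe pairs compared, and with r = 0.56 without the 2 farthest arrays. ENPEP A_72_P035326 and A_72_P604233 had r = 0.71, with a permutation p of 1e-05, the smallest the 100000 resamples can give, and an adjusted p of 7e-05, rho = 0.72, and r = 0.65 without the 2 farthest arrays. For the ANPEP probes A_72_P177411 and A_72_P632095, of which the first was nearly always saturated, r was -0.24 (permutation p = 0.18).

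Among 68 relations of the 4 genes with summed marker lists, the closest by p was that of SLC15A1 with other brush border peptidases. Their level is a sum of intensities over 8 accessions, in which the brightest, of ACE, weighs most. On day 1 in control piglets this accession averaged 15.95, beside 11.86 for GGT1, 11.03 for DPEP1 and 10.38 for XPNPEP2. The relation with SLC15A1 had r = 0.60 (permutation p = 0.00015, adjusted p = 0.010) and rho = 0.61 (permutation p = 0.00011, adjusted p = 0.0075). It was 0.54 without the 2 farthest arrays, 0.38 without the 6 arrays with high ileal genes, 0.65 in control and 0.56 in amoxicillin piglets. Within slides 1 to 5 it was -0.22, 0.80, 0.89, 0.12 and 0.79. For DPP4, ANPEP and ENPEP the r with this list was 0.43, 0.07 and 0.02 (permutation test, adjusted p = 0.071, 0.90 and 0.95). The largest r of the 68 relations was 0.74, of SLC15A1 with enterocyte lipid-handling genes (permutation p = 0.0094, adjusted p = 0.073). It was 0.06 without the 6 arrays with high ileal genes. SLC15A1 also followed the other amino acid and peptide transporters with r = 0.54 (permutation p = 0.0027, adjusted p = 0.045), while rho was 0.47 (permutation p = 0.0043, adjusted p = 0.073), and r was 0.53 without the 2 farthest arrays and 0.50 without those 6. Within slides 1 to 5 this r was 0.71, -0.21, 0.74, 0.15 and 0.90.

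With crypt proliferation genes SLC15A1 had r = -0.68 (permutation p = 0.004, adjusted p = 0.055) and rho = -0.55 (permutation p = 0.0019, adjusted p = 0.047). This r was -0.44 without the 2 farthest arrays and -0.16 without the 6 arrays with high ileal genes, so most of it rests on those arrays. Within slides 1 to 5 it was 0.19, -0.80, -0.44, -0.40 and -0.96. DPP4 followed the enterocyte transcription factors with r = 0.55 (permutation p = 0.0011, adjusted p = 0.039) and rho = 0.50 (permutation p = 0.0021, adjusted p = 0.047), with 0.38 without the 2 farthest arrays and 0.27 without the 6, and within slides 1 to 5 with 0.43, 0.30, 0.25, 0.36 and 0.82. ENPEP followed goblet cell genes with r = 0.60 (permutation p = 0.0017, adjusted p = 0.039), but rho was 0.40 (permutation p = 0.019, adjusted p = 0.13), with 0.49 without the 2 farthest arrays and 0.46 without the 6. Within slides 1 to 5 this r was -0.27, 0.24, 0.24, 0.28 and 0.86, and it was 0.16 in control and 0.72 in amoxicillin piglets. The goblet cell sum rests mostly on its brightest genes, whose group means lay between 15.40 and 16.00, near the ceiling. ANPEP had r = 0.39 with myeloid genes (permutation p = 0.013, adjusted p = 0.089) and 0.34 without the 6. With T-cell genes it had r = 0.45 (permutation p = 0.0073, adjusted p = 0.071) and 0.49 without the 6. Neither passed after adjustment, and saturation limits the deviations of ANPEP.

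**Figure D5:**
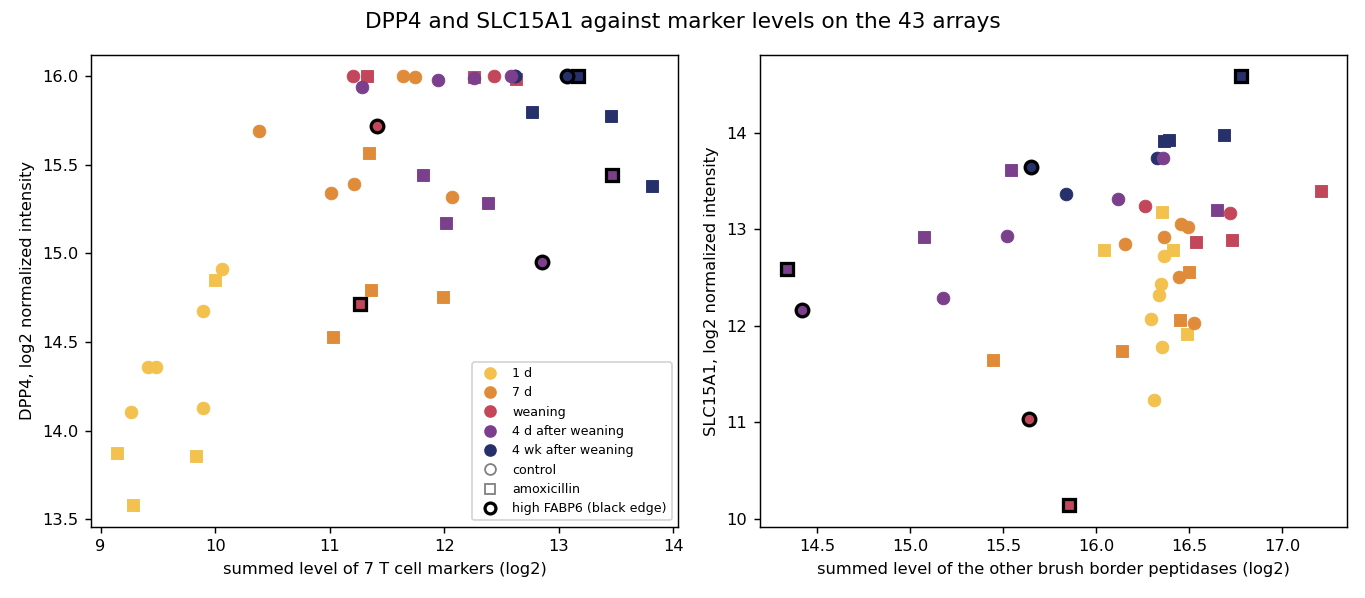
Left, DPP4 against the summed level of 7 T-cell markers; right, SLC15A1 against the summed level of the other brush border peptidases; both as normalized log2 values, 1 point per array for 43 arrays, colored by age, with circles for control, squares for amoxicillin and black edges for the 6 arrays with high ileal genes. DPP4 and the T-cell sum both rise with age, with r = 0.15 once group means are taken out, and SLC15A1 and the peptidase sum have r = 0.60 within groups.

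Over all 43 arrays, ages included, SLC15A1 was followed most closely by GAL3ST1 (r = 0.72), SEC14L2 (0.71), PSMB10 (0.70), HSD17B13 (0.69) and GZMH (0.69). GAL3ST1 thus stood among the 5 nearest genes of both DPP4 and SLC15A1. For ANPEP they were RRNAD1 (0.66), KRT8 (0.65), ANGPTL4 (0.65), MFSD6 (0.64) and FLVCR2 (0.64), and for ENPEP they included PDCD10 (0.65), ACTR3 (0.62), SERTAD3 (0.62) and VAPB (0.60). These are descriptions over arrays that share ages and slides.

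The other genes of protein digestion took different courses. Of 8 accessions for other brush border peptidases, 2 were called by age in each group, beside 30.5% and 47.0% of all genes. GGT1, which splits glutathione, fell by 1.68 between day 1 and 4 wk postweaning in control piglets (adjusted p = 0.0204) and differed by -0.70 in amoxicillin piglets (adjusted p = 0.354). In this comparison 2 of the 8 rose and 1 fell in control piglets and 2 rose in amoxicillin piglets, with medians of 0.74 and 0.30, beside 25.6% and 31.4% of all genes that passed.

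The 4 lysosomal peptidases measured moved opposite to DPP4 and SLC15A1. All 4 fell between day 1 and 4 wk postweaning in both groups, with medians of -1.92 in control and -1.89 in amoxicillin piglets against -0.08 and -0.11 over all genes. Of all genes, 12.2% in control and 18.9% in amoxicillin piglets passed as lower in this comparison. CTSB (cathepsin B) fell by 1.79 in control and fell by 1.60 in amoxicillin piglets (adjusted p = 0.000229 and 0.000714), and CTSA (cathepsin A) fell by 2.05 and fell by 2.18 (adjusted p = 0.000398 and 0.000165). Lysosomal proteases of the suckling enterocyte are known to digest protein taken up whole from milk.

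Among 5 other amino acid and peptide transporters, 2 rose between day 1 and 4 wk postweaning in control piglets and none passed in amoxicillin piglets by limma. Of all genes 25.6% passed this comparison in control and 31.4% in amoxicillin piglets. SLC1A1, the glutamate and aspartate transporter, rose by 1.96 in control piglets (adjusted p = 0.0137) and was 1.48 higher in amoxicillin piglets (adjusted p = 0.0567). SLC3A1, a subunit of the cystine and basic amino acid carrier, rose by 1.27 in control piglets (adjusted p = 0.0407) and differed by -0.29 in amoxicillin piglets (adjusted p = 0.675). SLC5A1, the sodium-glucose cotransporter of the same membrane, rose by 2.04 in control piglets (adjusted p = 0.00189) and was 1.01 higher in amoxicillin piglets (adjusted p = 0.115). No gene of these lists was called for the treatment of the sow at any age. SLC7A7, a subunit of the basic amino acid exchanger of the opposite membrane, was 1.42 higher in amoxicillin piglets at weaning with an adjusted p of 0.0364, under the fold threshold.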

How the data were processed

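Per the labels and the study's methods, the authors hybridized Cy3-labelled cRNA to one-color porcine Agilent arrays and deposited, for each array, Feature Extraction scan files with the median intensity and local background intensity of each spot, and a table of normalized log2 values. The authors' processing notes name R 3.0.2 and limma. From the scan intensities, normexp (offset 1) on median signal and background, quantile normalization and log2 were recomputed with R 4.3.3 and limma 3.58.1, which matched the deposited log2 table within 5e-09. Flagged spots were left out, probes of an accession were averaged, and accessions had to exceed 7.68, which is 1.1 times the brightest dark spot, in every sample of a group.

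One limma model of 10 groups was fitted to 43 arrays, with Benjamini-Hochberg adjustment over 12771 accessions. A comparison between ages was called at an adjusted p under 0.05, and the treatment at the study's thresholds. Correlations used deviations from group means and two-sided permutation tests within groups. With slide as a fixed block or piglet number as a block, they used residuals of that fit and a t-test instead. Scripts were tested on simulated data. Precision is limited by the number of arrays. Alternatives covered background, scaling, filter, probe choice, array weights, slide, piglet number and single arrays. Piglet numbers were not taken to pair samples. The 4 genes and all gene lists were chosen with earlier results of these data known. Named genes were the 4 members, for each the 5 named genes with the highest r, and from each list up to 3 genes with the smallest adjusted p of the age test in control piglets. Gene symbols came from RefSeq accessions, and of the probe sequences and genome positions none was used here. Some genes that these rules would name are not reported here.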

Additional observations from a re-analysis of the deposited data

Results flagged for a closer look

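Over 32 groups of 4 to 6 arrays, 6 values of the 4 genes lay farther from the rest of their group than Dixon's criterion allows at 95%. Chance sets apart about 1 in 20 such groups where values have no ceiling. Saturated spots narrow the spread of DPP4 and ANPEP groups, so this rate is not settled for them. SLC15A1 at weaning in amoxicillin piglets was 10.14 in piglet 8, with the nearest array at 12.87, and DPP4 was 14.71 in the same piglet, with the nearest at 15.98. DPP4 at 4 d postweaning in control piglets was 14.95 in piglet 10, with the nearest at 15.94, and SLC15A1 at 4 wk postweaning in amoxicillin piglets was 14.59 in piglet 40, with the nearest at 13.97. These 4 values came from 3 of the 6 arrays with high ileal genes. ANPEP was 15.19 in control piglet 19B on day 1, with the nearest at 15.51, and 15.80 in amoxicillin piglet 20 on day 7, with the nearest at 15.34.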

How the results depend on the processing

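Of 5840 single comparisons over 61 alternatives, 5747 kept their side of the threshold, 61 no longer passed and 31 newly passed. The 5747 include comparisons that passed in neither fit and changed sign. The remaining 1, which had passed as reported, changed sign. This was SLC15A1 at 4 wk postweaning against day 1 in control piglets, at -0.10 with slide as a fixed block. As reported, 1 gene was called by age in control and 2 in amoxicillin piglets, with 5 and 8 age comparisons, 0 treatment comparisons and 0 agreeing pairs. Age comparisons were 4 in amoxicillin piglets with the processed signal and 3 in control piglets with normexp, both scaled to the 75th percentile, with 1 agreeing pair in each. Array weights gave 4 genes and 14 comparisons in control piglets, and slide as a random block 5 comparisons in amoxicillin piglets. Slide as a fixed block gave 0 genes and 0 comparisons in amoxicillin piglets, 2 comparisons in control piglets and, by a t-test on residuals, 4 agreeing pairs. Chosen after seeing the data, leaving out the 4 arrays with few bright spots gave 1 gene and 4 comparisons in amoxicillin piglets and 1 treatment call, and leaving out the 6 arrays with high ileal genes gave 2 genes in control and 4 in amoxicillin piglets. Leaving out single arrays gave 1 to 2 genes in control and 2 to 3 in amoxicillin piglets, 4 to 6 and 6 to 9 comparisons, 0 to 0 treatment calls and 0 to 2 agreeing pairs. The 2 genes in control piglets came without amoxicillin piglet 8 of weaning, and the agreeing pairs without control piglet 30 of 4 d postweaning (1), amoxicillin piglet 21 of day 1 (2) or piglet 24 of day 7 (1). The cause of these changes was not tested.

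Piglet numbers recur between groups. The 18 pairs of arrays with the same number had a median correlation of deviations of 0.022 (-0.274 to 0.443), and 6 were over 0.1. Most of these pairs join a control to an amoxicillin piglet, whose sows differ. The check therefore cannot show whether piglets of the same number share a sow, and the numbers were not taken to pair samples. With piglet number as a replicate block, 0 genes and 0 age comparisons were called in either group. The adjusted p of the DPP4 age test by limma was 0.268 in control and 0.902 in amoxicillin piglets. Where numbers are shared, this block mostly joins piglets of different sow treatments. These values therefore do not show an effect of litter, which was not tested. Saturated spots limit ANPEP, DPP4 and ENPEP upwards.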

Other observations

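Counts called by age in marker lists are read beside 30.5% of all genes in control and 47.0% in amoxicillin piglets. Myeloid genes had 2 of 4 accessions called by age in control and 4 of 4 in amoxicillin piglets, and stroma and vessel genes 4 of 6 and 5 of 6. PECAM1, an endothelial adhesion molecule, fell by 1.45 in control and by 1.57 in amoxicillin piglets between day 1 and 4 wk postweaning (limma adjusted p = 0.000259 and 8.35e-05). PIGR, the epithelial receptor that carries IgA into the lumen, rose by 6.64 in both groups (adjusted p = 9.73e-07 and 6.86e-07).

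Of 4 goblet cell genes 1 was called by age in control and 2 in amoxicillin piglets, and SPDEF, a transcription factor of goblet cells, rose by 0.99 by 4 wk postweaning in control piglets (adjusted p = 0.0217). None of 4 crypt proliferation genes was called in either group by limma. Of 9 enterocyte lipid-handling genes 3 and 2 were called, and SCARB1, a lipoprotein receptor, fell by 2.28 and by 1.49 (adjusted p = 0.000255 and 0.0117). Of 6 enterocyte transcription factors 2 and 1 were called, and KLF5 rose by 1.12 in control piglets (adjusted p = 0.012).

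All 5 smooth muscle genes were called by age in control piglets and none in amoxicillin piglets by limma. The test that the course is the same in both groups passed for none of the 5 by limma, beside 6.18% of all genes, so a difference between the groups was not shown.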
